A study of Mus musculus with 2 samples.

Results

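The insulin-like growth factor (IGF) genes described here are the ligands Igf1 and Igf2, the receptor Igf1r, and the binding protein genes Igfbp2, Igfbp3, Igfbp4, Igfbp5, Igfbp6 and Igfbp7. They were taken by symbol, and each of the 9 matched 1 of the 32285 genes in the count matrices. The series asks how tumor cells and cancer-associated fibroblasts vary with Dll1, a membrane ligand of Notch receptors. It holds 1 library from a Dll1+ and 1 from a Dll1- mouse mammary tumor, each made by droplet single-cell RNA sequencing of the 3′ ends of transcripts. Live cells without CD45, a surface protein of leukocytes, had been sorted for it. Per the labels, both are control tumors that received no treatment, and both were digested with collagenase and hyaluronidase and stained for CD31, CD45 and Ter119. The sources used here do not give the strain or age of the animals, nor what made a tumor Dll1+ or Dll1-. There were no replicates, so no difference was tested, and every interval below covers counting error only.

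IGF1 and IGF2 are small secreted hormones that act through the receptor tyrosine kinase encoded by Igf1r and, downstream, through IRS proteins, PI3 kinase and AKT. Most secreted ligand is held by IGF binding proteins, which lengthen its life outside the cell and govern how much reaches the receptor, and proteases such as PAPP-A cut these carriers and set the ligand free. In the mammary gland IGF1 from the stroma mediates effects of growth hormone on the growing epithelial ducts, and Igfbp5 is known for its increase when the lactating gland regresses.

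The Dll1+ library comprised 9685 cells after filtering and the Dll1- library 10132, with median depths of 7882 and 9904 unique molecular identifiers (UMIs, the counted transcript molecules) per cell. The cells fell into epithelial-like (8090 Dll1+ and 8711 Dll1- cells), fibroblast-like (333 and 574), mural-like (390 and 183; pericytes and vascular smooth muscle) and endothelial-like classes (255 and 280). A class led by Krt5 held 332 and 315 cells. In each of these classes every marker on its own list was detected in at least 20% of the cells of both libraries. Krt5-led cells are not given a cell type, because contractile myoepithelial genes were detected for 6 of 6 list members in the Dll1+ and 2 of 6 in the Dll1- library, and genes of skin and hair keratinocytes for 2 of 7 and 5 of 7. Another 25 and 7 cells were macrophage-like, and 260 and 62 stayed unnamed. Dll1 itself stood at 54.0 against 3.97 CPM (UMIs of the gene scaled to 1000000 UMIs of the class) in epithelial-like cells, at 88.8 against 84.3 CPM in Krt5-led cells, at 29.8 against 24.4 CPM in endothelial-like cells, and at 7.07 CPM or less in fibroblast-like and mural-like cells. The libraries shared 109 deposited barcodes, carried by 57 and 61 of the cells kept.

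Igf1, the ligand, was a gene of the fibroblast-like cells in both tumors. Its level there was 338 CPM (95% interval 318 to 359, 1047 UMIs) in the Dll1+ and 208 CPM (195 to 223, 839 UMIs) in the Dll1- library. Fibroblast-like cells supplied 79.8% and 86.2% of all Igf1 UMIs while holding 3.25% and 3.48% of all UMIs counted. Classes are ranked here and below without the few macrophage-like cells. Those held Igf1 at 180 CPM in Dll1+ and 352 CPM in Dll1-, the latter all from 1 cell. The class next to fibroblast-like cells in the Dll1+ library was mural-like, 25.9-fold lower at 13.0 CPM. In the Dll1- library it was endothelial-like, 7.21-fold lower at 28.9 CPM. In mural-like cells of the Dll1- library Igf1 was at 15.2 CPM, from 20 UMIs in 8 cells, with 10 UMIs in 1 cell. Endothelial-like cells of the Dll1+ library held 12.0 CPM, from 17 UMIs in 8 cells, and those of the Dll1- library 38 UMIs in 18 cells. Mural-like and endothelial-like intervals overlapped within each library, so their order is not resolved. The gene lies on chromosome 10 (chr10:87858265-87937042, plus strand, mm10).

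Between the libraries, fibroblast-like cells of the Dll1+ tumor held 1.62-fold more Igf1 (log2 ratio 0.69, 0.56 to 0.83). With every cell thinned to 2000 UMIs, 35.9% of Dll1+ and 27.3% of Dll1- fibroblast-like cells had an Igf1 UMI. Endothelial-like cells went the other way, 2.40-fold lower in the Dll1+ library (log2 ratio -1.2, -2.18 to -0.40). In epithelial-like cells Igf1 was at 0.744 CPM (61 UMIs) and 0.0854 CPM (9 UMIs), which is 0.220% and 0.0409% of the fibroblast-like level of the same library. Of the 8 fibroblast markers, 6 reached 0.0409% to 0.115% of their fibroblast-like level in Dll1+ epithelial-like cells, below Igf1, while Pdgfra reached 0.855% and Pdpn, a leading gene of an epithelial-like sub-state, 10.6%. In the Dll1- library the 8 markers reached 0.0543% to 0.131%, above Igf1. The epithelial-like Igf1 counts are thus few and not clearly told apart from background. Krt5-led cells held 2 and 4 Igf1 UMIs.

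Igf2, the ligand of fetal growth, was close to absent. Fibroblast-like cells held 2 Dll1+ and 4 Dll1- UMIs (0.645 and 0.994 CPM), and mural-like cells 6 and 0 UMIs. No Igf2 UMI was counted in epithelial-like cells of either library, which allows up to 0.0366 and 0.0285 CPM by the limit of 3 counts. Krt5-led, endothelial-like and macrophage-like cells were at 0 as well. H19, the imprinted noncoding RNA whose gene lies 72622 bases from Igf2 on chromosome 7, was measured at 147 and 45.1 CPM in Krt5-led and at 78.4 and 22.1 CPM in fibroblast-like cells. Nearly all of Igf2 (chr7:142650766-142666816) lies inside Gm49394 (chr7:142650769-142669942), a gene model on the same strand that is not among the genes counted, and what this does to the Igf2 counts was not tested.

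Igf1r, the receptor of both ligands, was highest in the stroma. Fibroblast-like cells held 53.9 CPM (46.0 to 62.7) in the Dll1+ and 65.1 CPM (57.5 to 73.5) in the Dll1- library, and mural-like cells 51.0 CPM (42.8 to 60.3) and 64.5 CPM (51.5 to 79.8). These 2 classes did not differ beyond their counting intervals in either library. Endothelial-like cells followed at 24.8 and 19 CPM and Krt5-led cells at 14.5 and 10.5 CPM. Epithelial-like cells were lowest, at 3.56 CPM (3.16 to 3.99, 292 UMIs) in the Dll1+ and 9.16 CPM (8.59 to 9.76, 966 UMIs) in the Dll1- library. Igf1r was 2.57-fold lower in Dll1+ than in Dll1- epithelial-like cells (log2 ratio -1.16, counting interval without the added 1 CPM -1.56 to -1.17). In the other 4 classes the 2 libraries lay within 1.5-fold of each other for Igf1r. The gene lies at chr7:67952827-68233668 on the plus strand of mm10.

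**Figure D1:**
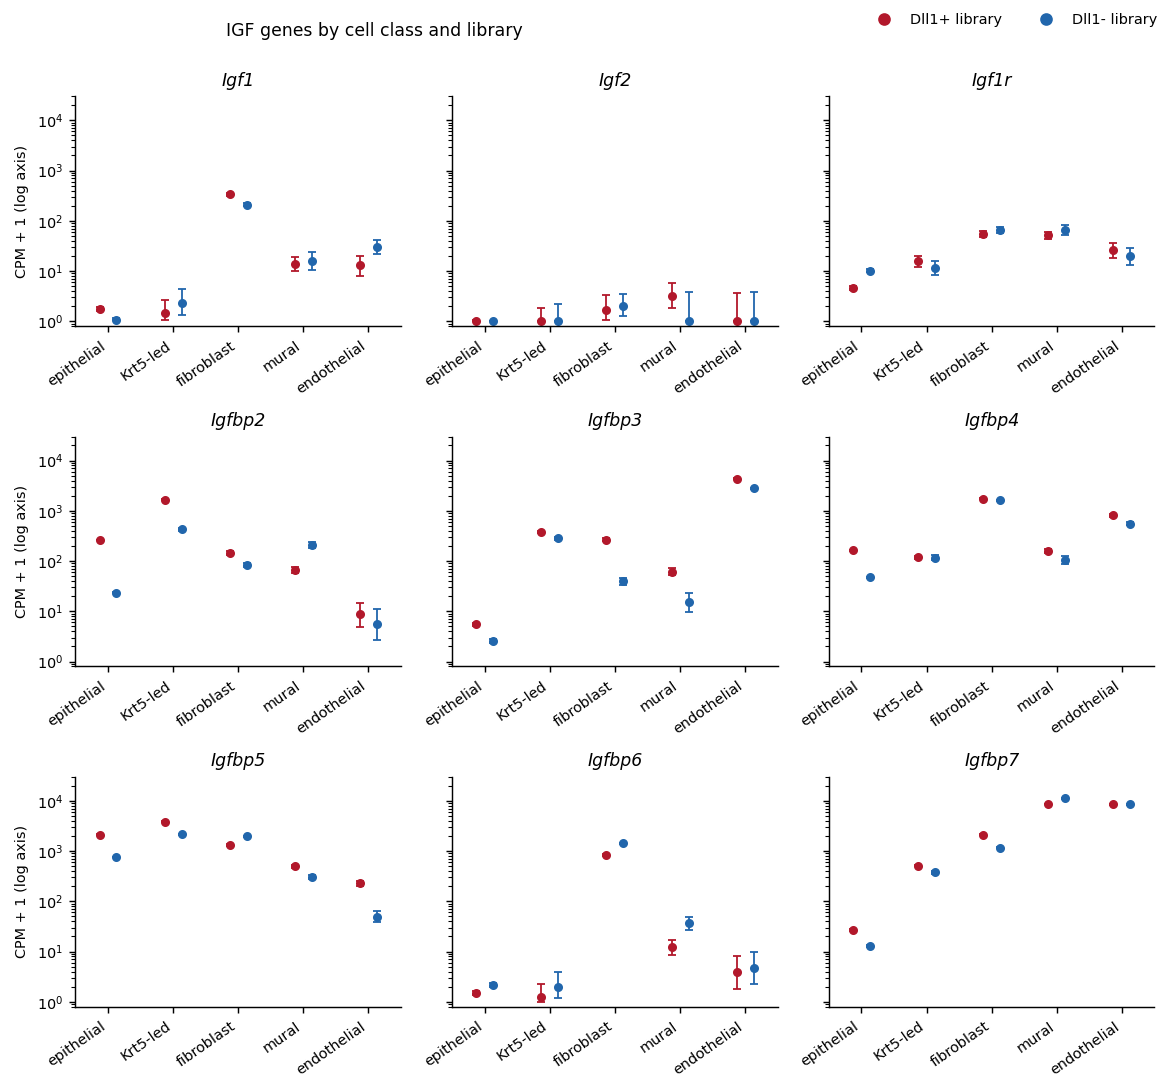
Level of each of the 9 genes in CPM plus 1 (logarithmic axis) in 5 cell classes, with red points for the Dll1+ and blue points for the Dll1- library and bars for exact Poisson 95% intervals. Igf1 and Igfbp6 peak in fibroblast-like cells, Igfbp3 in endothelial-like cells, and Igfbp2 in Krt5-led cells in both libraries.

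Igfbp2 and Igfbp5 are neighbours on chromosome 1, with their 3′ ends facing each other 5457 bases apart (Igfbp2 chr1:72824503-72852474, plus strand; Igfbp5 chr1:72857932-72874884, minus strand; mm10). Both were highest in Krt5-led cells, and their levels over the 10 class and library sums had a Pearson correlation of 0.825 on the log2 scale, a description over points that share libraries. Between the libraries both were higher in Dll1+ in epithelial-like and Krt5-led cells. In mural-like cells they went opposite ways (log2 ratio -1.64 for Igfbp2 and 0.69 for Igfbp5), and in fibroblast-like cells Igfbp2 had no settled direction. The promoters of both are shown because these adjacent genes were highest in the same class. Those of Igfbp6 and Igfbp7 are shown because these genes were highest in fibroblast-like and in vascular cells, in that order. Each sequence is the 250 bases before a RefSeq transcript start on GRCm38.p6, read 5′ to 3′ on the gene's strand. Capitals mark 3 motifs on either strand. The first is TGGGAA, the core of the site bound by RBPJ, the transcription factor of Notch signalling. The TATA box was searched as TATAAA. The GC box was searched as GGGCGG.
Igfbp2 promoter, chr1:72824230-72824479, plus strand: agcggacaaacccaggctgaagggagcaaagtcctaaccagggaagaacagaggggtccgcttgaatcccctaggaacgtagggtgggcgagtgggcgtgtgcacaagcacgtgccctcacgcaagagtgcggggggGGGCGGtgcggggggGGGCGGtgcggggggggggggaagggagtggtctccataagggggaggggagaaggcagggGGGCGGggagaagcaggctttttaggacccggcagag
Igfbp5 promoter, chr1:72874866-72875115, minus strand: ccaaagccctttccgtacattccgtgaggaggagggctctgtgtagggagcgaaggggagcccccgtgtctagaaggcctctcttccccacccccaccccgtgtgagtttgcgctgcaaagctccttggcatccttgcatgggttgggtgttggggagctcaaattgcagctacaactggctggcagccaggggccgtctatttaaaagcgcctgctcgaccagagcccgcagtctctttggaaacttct
Igfbp6 promoter, chr15:102143936-102144185, plus strand: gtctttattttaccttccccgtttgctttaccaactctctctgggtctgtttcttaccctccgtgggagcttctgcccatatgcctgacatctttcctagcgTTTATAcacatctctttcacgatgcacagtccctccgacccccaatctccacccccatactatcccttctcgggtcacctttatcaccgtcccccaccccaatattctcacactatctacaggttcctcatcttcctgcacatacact
Igfbp7 promoter, chr5:77408046-77408295, minus strand: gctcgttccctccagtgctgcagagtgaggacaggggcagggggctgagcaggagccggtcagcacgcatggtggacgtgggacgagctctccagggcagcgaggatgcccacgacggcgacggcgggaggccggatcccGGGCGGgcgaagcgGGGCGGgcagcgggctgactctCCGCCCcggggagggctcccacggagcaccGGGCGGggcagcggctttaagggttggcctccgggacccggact
Igfbp2 has 3 GC boxes, 113, 98 and 37 bases before its start, Igfbp7 has 4, Igfbp6 has a TATA box on the opposite strand 148 bases before its start, and Igfbp5 has none of the 3 motifs in this window. Among 32851 windows of the same length in RefSeq, 21.6% hold TGGGAA, 12.4% TATAAA and 32.7% GGGCGG. Over the 13 windows of the 9 genes, TGGGAA occurs in 3, all upstream of Igf1 or Igf2. A match is a description of the letters and not a binding site.

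Igfbp2, a binding protein of both ligands that also binds integrins, stood at 1668 CPM (1630 to 1707, 7237 UMIs) in Dll1+ and 426 CPM (403 to 449, 1293 UMIs) in Dll1- Krt5-led cells. Epithelial-like cells held 263 CPM (259 to 266, 21548 UMIs) and 22.7 CPM (21.8 to 23.6, 2391 UMIs). Dll1+ cells were thus 3.92-fold higher in the Krt5-led class (log2 ratio 1.97, 1.89 to 2.06) and 11.6-fold higher in the epithelial-like class (3.48, 3.47 to 3.60). Mural-like cells were opposite, with 66.3 CPM (56.9 to 76.7) in the Dll1+ and 208 CPM (184 to 234) in the Dll1- library, 3.14-fold lower in Dll1+ (log2 ratio -1.64, -1.93 to -1.37). Endothelial-like cells held 11 and 6 Igfbp2 UMIs. At 2000 UMIs per cell, 26.4% of Dll1+ and 3.15% of Dll1- epithelial-like cells had an Igfbp2 UMI, against 46.8% and 11.4% unthinned. Endothelial-like cells, the class with the lowest level, had a UMI in 0.909% and 0.881% of thinned cells.

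Fibroblast-like cells held Igfbp2 at 142 CPM (439 UMIs in 47 cells) in the Dll1+ and 82.5 CPM (332 UMIs in 15 cells) in the Dll1- library. A single Dll1- cell carried 265 of these 332 UMIs (79.8%), and the top Dll1+ cell 125 of 439 (28.5%). The ratio of 1.72-fold (log2 0.77) became 2.54 on the log2 scale, from 102 and 16.7 CPM, once the cell with the most Igfbp2 UMIs was left out of each library. It turned to -1.52 in the cells holding the fewest UMIs of other classes' markers relative to their total, so neither its size nor its direction is settled by these counts.

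Igfbp5, which binds extracellular matrix as well as IGFs, was the most abundant binding protein transcript of the epithelium. Krt5-led cells held 3855 CPM (3796 to 3914) in the Dll1+ and 2176 CPM (2124 to 2229) in the Dll1- library. Epithelial-like cells held 2133 CPM (2123 to 2143, 174937 UMIs) and 756 CPM (750.3 to 761, 79658 UMIs). The Dll1+ level was 2.82-fold higher in epithelial-like (log2 ratio 1.5, 1.48 to 1.51) and 1.77-fold higher in Krt5-led cells (0.82, 0.78 to 0.87). In fibroblast-like cells the order was reversed but within 1.5-fold, with 1314 CPM (1274 to 1355) in Dll1+ and 1958 CPM (1915 to 2002) in Dll1- (log2 ratio -0.57, -0.63 to -0.52). Endothelial-like cells held 227 CPM (203 to 253, 320 UMIs) against 48.7 CPM (37.5 to 62.2, 64 UMIs), 4.65-fold higher in Dll1+. The 8 epithelial markers summed to 341 and 305 CPM in these endothelial-like cells, against 8700.1 and 13043 CPM in epithelial-like cells, and their part in this difference was not tested. Mural-like cells held 494 and 306 CPM, and in the Dll1- library all 403 of these UMIs came from 23 cells. Without the mural-like sub-state M4, in which every epithelial marker was detected, the level was 64.4 and 18.0 CPM. A UMI of Igfbp5 was found in 73.0% of Dll1+ and 46.2% of Dll1- epithelial-like cells after thinning.

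Igfbp3, the chief IGF carrier of blood plasma, belonged to the endothelium. Endothelial-like cells held 4378 CPM (4270 to 4489, 6177 UMIs) in the Dll1+ and 2801 CPM (2711 to 2893, 3679 UMIs) in the Dll1- library, 11.8-fold and 9.79-fold above the next class. They supplied 66% and 74.4% of all Igfbp3 UMIs. The Dll1+ level was 1.56-fold higher (log2 ratio 0.64, 0.59 to 0.70). Krt5-led cells came next with 373 and 286 CPM. Its largest ratio between the tumors was in fibroblast-like cells, where Igfbp3 stood at 267 CPM (249 to 286, 827 UMIs) in Dll1+ and 38.8 CPM (32.9 to 45.3, 156 UMIs) in Dll1-, 6.88-fold higher (log2 ratio 2.75, 2.53 to 3.04). After thinning, 18.1% of Dll1+ and 4.21% of Dll1- fibroblast-like cells had an Igfbp3 UMI. Mural-like cells held 60.7 and 14.4 CPM (163 and 19 UMIs), the Dll1+ library being the higher. Epithelial-like cells held 4.49 and 1.55 CPM, or 0.102% and 0.0552% of the endothelial-like level. The 8 endothelial markers reached medians of 0.0967% and 0.0812% there, so these counts are not told apart from background. The gene (chr11:7206086-7213923, minus strand, mm10) lies 3539 bases from Igfbp1, of which 4 UMIs were counted over the 5 classes.

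Igfbp4, an inhibitory binding protein that PAPP-A cleaves, was highest in fibroblast-like cells, at 1739 CPM (1692 to 1786) in Dll1+ and 1640.2 CPM (1601 to 1680.3) in Dll1-. These levels differed 1.06-fold. Endothelial-like cells followed at 808 and 554 CPM. In epithelial-like cells Igfbp4 was 3.54-fold higher in Dll1+, 164 CPM (161 to 167) against 46.2 CPM (44.9 to 47.5), with a log2 ratio of 1.80 (1.78 to 1.87). Krt5-led cells were level at 117 and 116 CPM. Mural-like cells held 159 and 104 CPM, 1.53-fold higher in Dll1+ (log2 ratio 0.61, 0.33 to 0.90). The gene lies at chr11:99041244-99054392 on the plus strand.

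Igfbp6, which prefers IGF2 over IGF1, stood furthest above the next class of the 8 genes with at least 20 CPM in a class. Fibroblast-like cells held 831 CPM (799 to 864, 2576 UMIs) in the Dll1+ and 1437 CPM (1399.9 to 1474, 5782 UMIs) in the Dll1- library, 74.4-fold and 40.3-fold above the next class, and supplied 92.9% and 95.7% of all Igfbp6 UMIs. Here the Dll1+ tumor was the lower, 1.73-fold (log2 ratio -0.79, -0.86 to -0.72). The share of thinned fibroblast-like cells with a UMI was 69.7% in Dll1+ and 84.8% in Dll1-. Epithelial-like cells held 0.50 and 1.14 CPM, or 0.0601% and 0.0792% of the fibroblast-like level, as low as the fibroblast markers there. Mural-like cells held 11.2 and 35.7 CPM, the latter from 47 UMIs in 7 cells. The gene lies at chr15:102144362-102149511 on the plus strand.

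Igfbp7, a secreted relative with low affinity for IGFs that is known from vessel walls, had the highest levels of the family. Mural-like cells held 8657 CPM (8546 to 8769) in Dll1+ and 11170.0 CPM (10990.3 to 11352) in Dll1-, and endothelial-like cells 8502 CPM (8350.3 to 8655) and 8590.2 CPM (8432 to 8750.2). The order of these 2 classes was resolved in the Dll1- library only. In both classes the libraries lay within 1.5-fold, with log2 ratios of -0.37 and -0.01. Fibroblast-like cells held 2137 CPM (2086 to 2189) in Dll1+ and 1165 CPM (1132 to 1199) in Dll1-, 1.83-fold higher (log2 ratio 0.87, 0.82 to 0.93). Krt5-led cells held 516 and 377 CPM, and epithelial-like cells 25.9 and 12.1 CPM, 2.14-fold higher in Dll1+. These epithelial-like levels are 0.305% and 0.141% of the endothelial-like ones. The endothelial markers reached medians of 0.0967% and 0.0812% there, with ranges of 0.0343% to 0.545% and 0.0168% to 1.11%. Igfbp7 lay above the medians but inside the ranges, so its epithelial-like counts are not clearly told apart from background. The 3′ end of Igfbp7 (chr5:77349240-77408041, minus strand) overlaps that of Polr2b on the other strand by 85 bases. The sources used here do not say whether counting used strand, so counts in that overlap cannot be told apart.

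Members were counted at a 1.5-fold difference where they reached 30 UMIs over both libraries in the class. In epithelial-like cells 8 of the 9 did, and 6 were higher in Dll1+ (Igf1, Igfbp2, Igfbp3, Igfbp4, Igfbp5 and Igfbp7), 1 was lower (Igf1r) and 1 lay between (Igfbp6). Of the higher ones, Igf1 (61 and 9 UMIs), Igfbp3 and Igfbp7 were not clearly told apart from background in this class. Of 15262 genes measured in that class, 26.7% were 1.5-fold apart, 20.7% higher and 5.98% lower. The member median was 1.07 and that of all genes 0.20 on the log2 scale. Fibroblast-like cells had 8 members measured, with 4 higher (Igf1, Igfbp2, Igfbp3 and Igfbp7), 1 lower (Igfbp6) and 3 between, Igfbp2 having no settled direction, beside 13.8% of all genes apart, 8.56% higher and 5.24% lower. Here the medians were 0.39 and 0.03.

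The remaining classes were counted in the same way. Krt5-led cells had 6 members measured, 2 of them higher (Igfbp2 and Igfbp5) and none lower, against 24.1% of all genes apart, 15.9% higher and 8.19% lower. Mural-like cells had 8 measured, 3 higher (Igfbp3, Igfbp4 and Igfbp5) and 2 lower (Igfbp2 and Igfbp6), against 20.8%, 16.4% and 4.46%. Of the 2 lower, Igfbp6 had no settled direction. Endothelial-like cells had 6 measured, 2 higher (Igfbp3 and Igfbp5) and 1 lower (Igf1), against 14.4%, 9.93% and 4.43%. The member medians in these 3 classes were 0.44, -0.27 and 0.45, and those of all genes 0.12, 0.15 and 0.06. Rescaling by TMM lowered the log2 ratios of CPM, before 1 was added, by 0.26 in epithelial-like and 0.13 in Krt5-led cells. The shifts were 0.12 in mural-like, 0.08 in endothelial-like and 0.05 in fibroblast-like cells. With 1 CPM added, genes of low level shifted less. Under TMM 2 mural-like members were lower and 1 was higher, and endothelial-like Igfbp3, at 0.57, was no longer 1.5-fold apart.

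**Figure D2:**
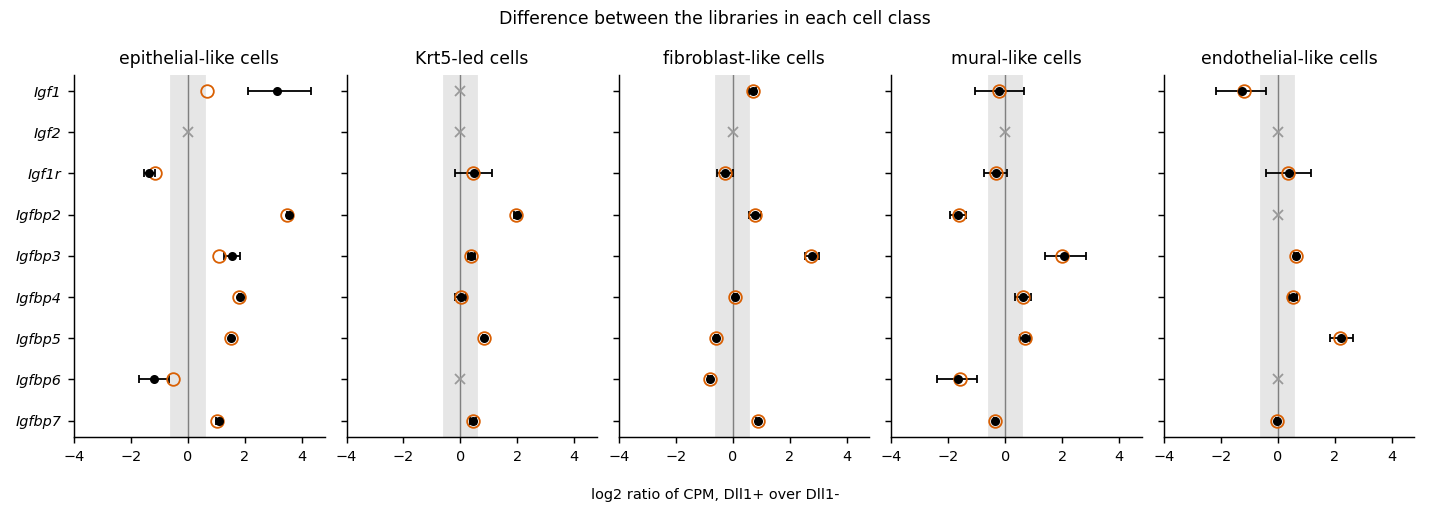
Ratio of Dll1+ over Dll1- for each gene in each class on the log2 scale, with a black dot and bar for the ratio of CPM and its exact 95% counting interval, an open orange circle for the ratio with 1 CPM added, a grey band for ratios within 1.5-fold and a grey cross where fewer than 30 UMIs were counted. Igfbp2 stands far to the Dll1+ side in epithelial-like cells (3.48) and to the Dll1- side in mural-like cells (-1.64).

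The 6 binding protein genes together summed to 2590.1 CPM in Dll1+ and 839 CPM in Dll1- epithelial-like cells, and to 6529 and 3382 CPM in Krt5-led cells. The sums were alike in fibroblast-like cells, 6429 CPM (6340.2 to 6519) and 6321 CPM (6244 to 6399), while their makeup was not. UMIs mark 3′ ends, so these shares do not scale with transcript length. Igfbp7 was 33.2% of the sum in Dll1+ and 18.4% in Dll1- fibroblast-like cells, Igfbp5 20.4% and 31.0%, Igfbp6 12.9% and 22.7%, and Igfbp4 27.0% and 25.9%. Epithelial-like cells were dominated by Igfbp5 (82.3% and 90.0%), with Igfbp2 at 10.1% and 2.70%. Mural-like cells were dominated by Igfbp7 (91.6% and 94.4%), and endothelial-like cells held mostly Igfbp7 (61.1% and 71.6%) and Igfbp3 (31.4% and 23.3%).

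**Figure D3:**
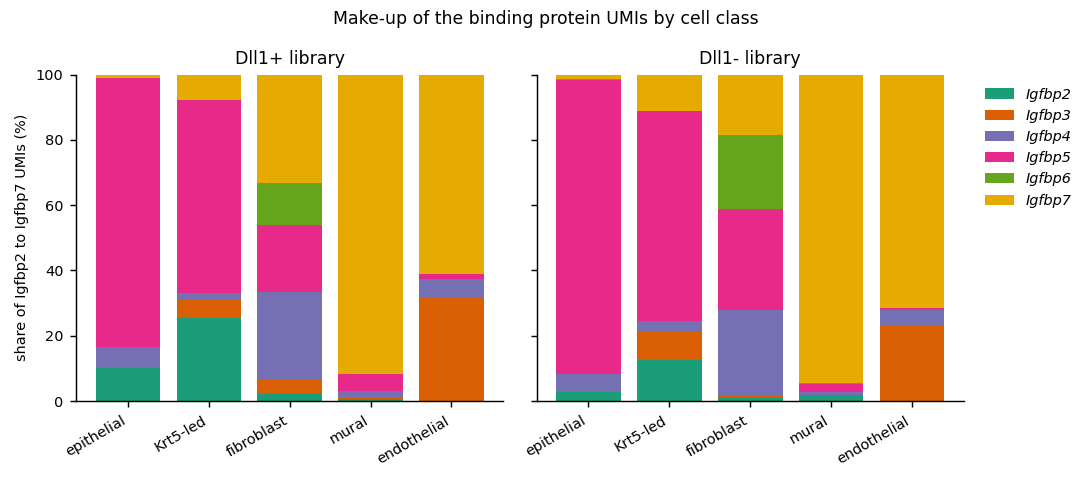
Share of each of Igfbp2 to Igfbp7 in the summed binding protein UMIs, in percent, with a stacked bar for each class and library. Fibroblast-like cells show the most even mixture, and their Igfbp6 segment is 12.9% in Dll1+ and 22.7% in Dll1-.

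Fibroblast-like cells were split into sub-states F1 to F5 by clustering in which none of the 9 genes was used. F1 (39 Dll1+ and 322 Dll1- cells) was led by Smpd3, Procr and Il18, F2 (123 and 114) by Saa3, Apoe and Ccl19, and F3 (124 and 43) by Unc5b, Mgp, Thbs4, Tagln and Igfbp2. F4 (44 and 53) was led by the mitotic genes Cenpf, Birc5 and Mki67, and F5 (3 and 42) by Ptgs2 and Il6. The libraries therefore differed in which fibroblasts they held. Values are given for sub-states with at least 30 cells of a library, a minimum lowered from 50 after the data were seen.

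Igf1 was lowest in cycling F4 cells, at 70.1 CPM in Dll1+ and 71.3 CPM in Dll1-. F1 held 181 and 150.2 CPM. F2 held 344 CPM (399 UMIs) and 346 CPM (310 UMIs), a log2 ratio of -0.01 (-0.23 to 0.21), so the class difference in Igf1 was not seen there. F3 held 474 and 263 CPM, higher in Dll1+ (log2 ratio 0.85, 0.52 to 1.2), and F5 of the Dll1- library 383 CPM. Igf1r was at 62.8 and 77.4 CPM in F1, 55.2 and 56.9 CPM in F2, 52.7 and 28.5 CPM in F3 and 44.6 and 34.7 CPM in F4, and at 104 CPM in F5 of the Dll1- library.

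F3 was the sub-state of Igfbp2, Igfbp3 and Igfbp7. Igfbp3 stood there at 656 CPM (772 UMIs) in Dll1+ and 389 CPM (123 UMIs) in Dll1-, and at 53.1 CPM or less in F1, F2 and F4 of either library. Beside the 6.88-fold class difference, the log2 ratio of Igfbp3 was 0.75 (0.48 to 1.04) inside F3, 0.30 (-0.75 to 1.44) inside F2, 2.00 (0.76 to 3.42, 9 and 15 UMIs) inside F1 and 2.70 (1.33 to 4.84, 25 and 4 UMIs) inside F4. Igfbp7 in F3 was 3742 and 4338 CPM, slightly lower in Dll1+ (log2 ratio -0.21, -0.30 to -0.12), and in F2 1385 and 1908 CPM, also lower (-0.46, -0.56 to -0.36). It was higher in Dll1+ in F1, 643 and 538 CPM (0.26, 0.02 to 0.49), and in F4, 911 and 676 CPM (0.43, 0.23 to 0.63). The class as a whole had Igfbp7 higher in Dll1+, beside 124 of its 333 cells in F3 against 43 of 574. Igfbp2 in F3 was 358 CPM and 1047 CPM, and 254 and 219 CPM without the top cell of each library.

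F1 and F4 were the sub-states of Igfbp5 and Igfbp6. Igfbp5 reached 2926 and 3239 CPM in F1 and 4182 and 1855 CPM in F4, against 495 and 265 CPM in F2 and 594 and 301 CPM in F3. Inside F2, F3 and F4 it was higher in Dll1+ (log2 ratios 0.90, 0.98 and 1.17), whereas the whole class was lower. Igfbp6 was also highest in these sub-states, with 1385 and 1806 CPM in F1, 1535 and 1630.0 CPM in F4, 667 and 935 CPM in F2 and 583 and 842 CPM in F3. It was lower in Dll1+ in F1, F2 and F3 (log2 ratios -0.38, -0.49 and -0.53), within 1.5-fold, and in F4 the interval spanned 0 (-0.09, -0.23 to 0.06). Igfbp4 was ranked over F1 to F4 only, leaving out F5. It was lowest in F4, at 639 and 504 CPM. It was highest in F3 of the Dll1+ library (2985 CPM, against 1978 CPM in Dll1-) and in F2 of the Dll1- library (2064 CPM). It was lower in Dll1+ in F1 (log2 ratio -0.99, -1.2 to -0.80) and F2 (-0.85, -0.95 to -0.75) and higher in F3 (0.59, 0.47 to 0.72).

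**Figure D4:**
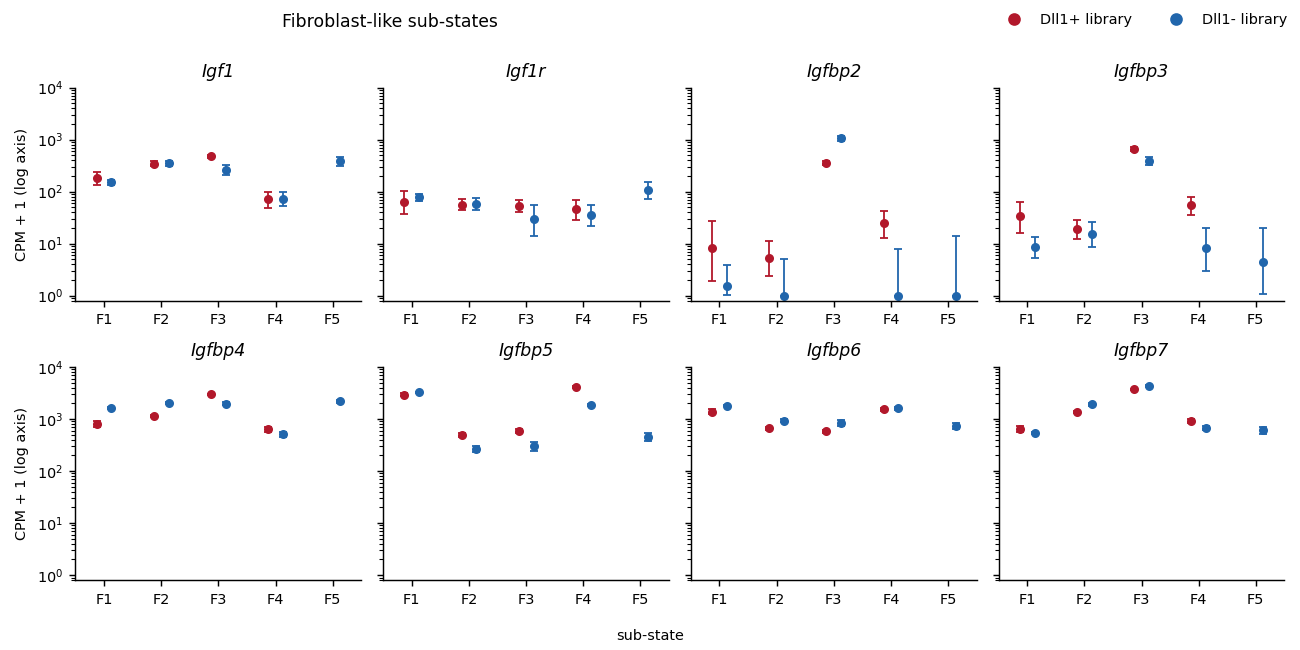
Level in CPM plus 1 (logarithmic axis) of 8 of the genes in fibroblast-like sub-states F1 to F5, with red points for Dll1+, blue points for Dll1- and bars for exact Poisson 95% intervals. Igfbp2, Igfbp3 and Igfbp7 peak in F3, and Igfbp5 and Igfbp6 are highest in F1 and F4.

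Fibroblast-like cells usually carried several binding protein transcripts at once. Thinned cells had a median of 3 of the 6 genes in both libraries, and 60.3% of Dll1+ and 72.0% of Dll1- cells had 3 or more. Endothelial-like cells had medians of 3 in Dll1+ and 2 in Dll1-, and 66.4% and 49.8% of them had 3 or more. Mural-like cells had a median of 1 in both libraries. In Dll1+ fibroblast-like cells, Igfbp4 accompanied Igf1. An Igfbp4 UMI was found in 74.8% of 115 cells with an Igf1 UMI and in 48.3% of 205 without. In Dll1- it was 82.6% of 149 (75.5 to 88.3) and 72.0% of 397 (67.3 to 76.4), with overlapping intervals. Igfbp5 was the reverse in Dll1-, found in 41.6% against 69.3% of cells. In Dll1+ it was 32.2% (23.8 to 41.5) against 45.4% (38.4 to 52.4), with overlapping intervals. The part of the sub-states in these shares was not tested. Dll1+ fibroblast-like cells had deeper libraries (median 9222 against 6624 UMIs) and more mitochondrial UMIs (2.84% against 1.52%), whose part in these values beyond the thinning was not tested.

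Epithelial-like cells were split into sub-states E1 to E7, which the tumors shared little. E2 (led by Tmem213, Cd74 and Kcne3) held 5355 Dll1+ and 3 Dll1- cells, and E4 (Ptn, Rbp7, Bex2 and Pdpn) 989 and 0. E1 (the milk protein genes Lalba and Wap, with Rec8) held 1106 and 5048 cells, E3 (Fermt1, Krt7 and Lgals3) 199 and 2987, and the cycling E5 121 and 528. E6 (Spp1 and Chil1) held 308 and 16, and E7 (Sprr1a and Krt6a) 12 and 129. E4 had Pdpn, a marker on the fibroblast list, and no epithelial marker among its 10 leading genes. Without E4 the class log2 ratios were 2.87 for Igfbp2, 1.60 for Igfbp4, 1.80 for Igfbp5 and -0.92 for Igf1r.

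The Igfbp2 excess of Dll1+ epithelial-like cells sat in sub-states that the Dll1- tumor nearly lacked. Igfbp2 was at 254 CPM in E2 and 574 CPM in E4, and at 54.5 CPM in E6. In the shared E1 it was lower in Dll1+, 11.9 against 27.6 CPM (log2 ratio -1.15, -1.45 to -0.98), in E3 it was 11.9 against 6.91 CPM, and in E5 25.2 against 32.6 CPM. Igfbp4 behaved alike, with 198 CPM in E2 and 237 CPM in E4, and 38.1 against 56.7 CPM in E1 (log2 ratio -0.56, -0.71 to -0.44). The class differences in Igfbp2 and Igfbp4 thus turned around when E1, E3 and E5 were weighted alike, to log2 ratios of -0.43 and -0.46. These 3 sub-states hold 1426 of 8090 Dll1+ and 8563 of 8711 Dll1- epithelial-like cells.

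Igfbp5 was higher in Dll1+ within E1 as well, at 1760 against 1059 CPM (log2 ratio 0.73, 0.71 to 0.75), and within E3, at 488 against 242 CPM (1.01, 0.91 to 1.11). E5 was close, with 348 and 317 CPM. The highest epithelial level was 6204 CPM in E6 of the Dll1+ library, followed by 2922 CPM in E2, whereas E4 held 387 CPM. Igf1r was 1.33 CPM in E2 and 0.759 CPM in E4, and 8.69 against 6.80 CPM in E1 and 23.9 against 16.0 CPM in E3. Within E1 and E3 it was therefore higher in Dll1+ (log2 ratios 0.31 and 0.55), opposite to the class, and weighting E1, E3 and E5 alike gave 0.44. Igfbp7 in E3 was 121 against 22.4 CPM (log2 ratio 2.38, 2.21 to 2.65). Over the class it was 25.9 and 12.1 CPM, not clearly told apart from background, and E3 was not compared with background separately.

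**Figure D5:**
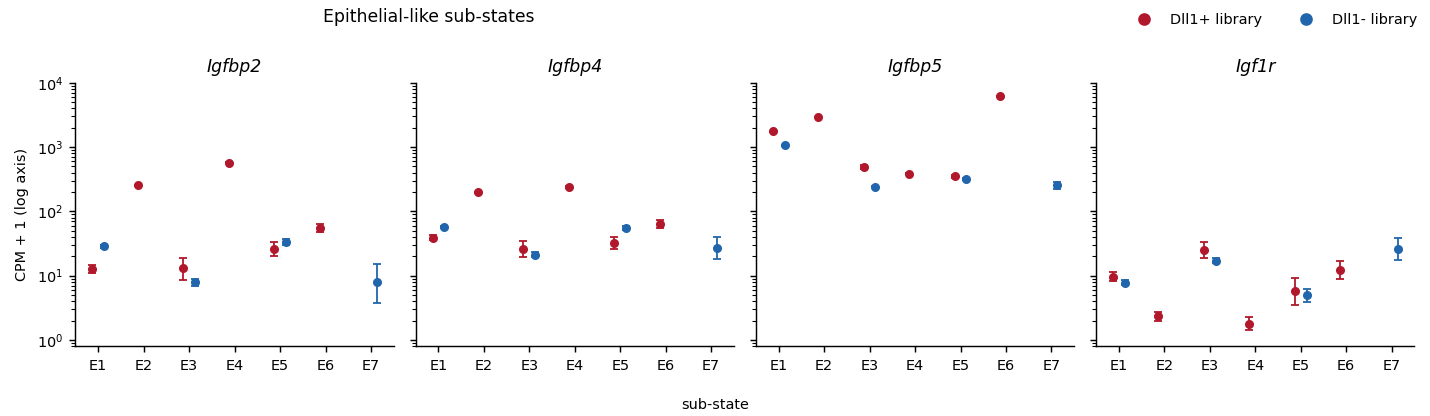
Level in CPM plus 1 (logarithmic axis) of Igfbp2, Igfbp4, Igfbp5 and Igf1r in epithelial-like sub-states E1 to E7, with red points for Dll1+, blue points for Dll1- and bars for exact Poisson 95% intervals. Igfbp2 and Igfbp4 are highest in E2 and E4, which have Dll1+ points only, and Igf1r is lowest there.

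Krt5-led cells divided by Igfbp5. K2, led by Hp, Vcam1 and Spp1 (45 Dll1+ and 108 Dll1- cells), held 10472 and 5326 CPM of Igfbp5 and also 1422 and 772 CPM of Igfbp3. K1, led by the keratinocyte genes Calm4, Krtdap and Cst6 (51 and 108 cells), held 34.2 and 47.1 CPM of Igfbp5 and 707 and 266 CPM of Igfbp2. K3, led by Fgg, Rgs16 and Ccn4 and found almost wholly in Dll1+ (138 and 7 cells), held 2242 CPM of Igfbp2 and 4628 CPM of Igfbp5. Within K1 and K2 Igfbp2 was higher in Dll1+ (log2 ratios 1.41 and 1.44), and in K4 the libraries were near each other, with 893 and 780 CPM (0.20, -0.02 to 0.41). Igfbp5 in K4 was lower in Dll1+, opposite to the class, at 283 and 809 CPM (log2 ratio -1.51, -1.85 to -1.19). K4 had Dcn among its 10 leading genes, and without it the class ratios were 2.29 for Igfbp2 and 0.76 for Igfbp5. Summed levels of the contractile gene list were 5354 and 1261 CPM over the class and those of the keratinocyte list 2891 and 6874 CPM, and their part in these differences was not tested.

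Mural-like cells divided by Igfbp2. M1, led by Ccn5, Lox and Igfbp2 (50 Dll1+ and 105 Dll1- cells), held Igfbp2 at 108 CPM (48 UMIs) and 441 CPM (265 UMIs), a log2 ratio of -2.02 (-2.50 to -1.58). M2 (105 and 24 cells) had no Igfbp2 UMI in Dll1+, which allows up to 5.35 CPM, and M3 (108 and 19 cells) had 4 UMIs there. M4 (82 and 16 cells) had all 8 epithelial markers detected, was led by Saa2, S100a8 and Lcn2 and is given no name of its own, but its cells are part of the class values above. Igfbp5 there was 2465 CPM and Igfbp7 1722 CPM in Dll1+. Summed epithelial markers were 1173 CPM in Dll1+ and 2062 CPM in Dll1- mural-like cells. Without M4 the mural-like log2 ratios were -3.17 for Igfbp2, 1.65 for Igfbp3, 0.87 for Igfbp4 and 1.78 for Igfbp5. Igfbp2 was at 66.3 and 208 CPM with M4 and at 28.6 and 266 CPM without it. Part of the Dll1+ level of Igfbp2 thus came from M4 and not from M1. Igfbp6 was at 2.72 and 2.00 CPM without M4, a log2 ratio of 0.31, so the direction was not kept. M3 had Dcn of the fibroblast list and no mural marker among its 10 leading genes. With M3 left out as well, the ratios were -2.89 for Igfbp2, 0.80 for Igfbp3, 1.83 for Igfbp5 and -0.82 for Igfbp7, and Igfbp4, at 0.49, was no longer 1.5-fold apart.

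Endothelial-like cells divided by Igfbp3. V3, led by the angiogenic tip cell genes Angpt2, Esm1 and Cxcr4 (84 Dll1+ and 30 Dll1- cells), held 8352 and 6751 CPM. V1, led by Cxcl2 and Il6 (75 and 128 cells), held 3413 and 3226 CPM, and V2, led by the venous genes Selp and Nr2f2 (73 and 100 cells), 2368 and 1811 CPM. The log2 ratios inside V1, V2 and V3 were 0.08, 0.39 and 0.31, each within 1.5-fold, beside 0.64 for the class. Igfbp5, in contrast, was higher in Dll1+ in all 3, with 125 against 25.0 CPM in V1, 507 against 115 CPM in V2 and 94.4 against 16.6 CPM in V3, where the Dll1- value rests on 2 UMIs (log2 ratio 2.44, 0.55 to 5.60). Igf1 in V2 was 2 UMIs in Dll1+ and 20 in Dll1- (log2 ratio -3.14, -6.49 to -1.31), and in V1 14 in each, or 33.0 and 21.9 CPM (0.57, -0.59 to 1.77).

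Other genes of the pathway came from a list of 42 receptors, proteases, inhibitors and signalling genes. In epithelial-like cells 37 were measured, 6 of them at least 1.5-fold higher in Dll1+ and 7 lower, beside 20.7% and 5.98% of all genes. In fibroblast-like cells 31 were measured, with 6 higher and 1 lower, beside 8.56% and 5.24%. Krt5-led cells had 29 measured (3 higher and 1 lower, beside 15.9% and 8.19%), mural-like cells 28 (6 and 1, beside 16.4% and 4.46%) and endothelial-like cells 23 (3 and 0, beside 9.93% and 4.43%). List medians ran from 0.04 to 0.19 on the log2 scale, against 0.03 to 0.20 for all genes in these classes.

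Among the receptors, Insr (the insulin receptor, which can pair with the IGF receptor) was highest in endothelial-like cells at 360.1 and 278 CPM. Igf2r, which takes up IGF2 for breakdown, was 33.8 CPM in Dll1+ and 52.3 CPM in Dll1- epithelial-like cells (log2 ratio -0.61) and 79.7 and 78.3 CPM in fibroblast-like cells. Lrp1, a scavenger receptor that binds IGFBP3, was 1096 and 886 CPM in fibroblast-like cells and 13.6 and 3.86 CPM in epithelial-like cells. Ghr, the growth hormone receptor, was 19.7 and 12.0 CPM in epithelial-like cells (log2 ratio 0.68).

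The proteases that cut binding proteins were stromal or in Krt5-led cells. Pappa, which encodes PAPP-A, was 116 and 115 CPM in Krt5-led cells and 12.9 CPM (40 UMIs) against 2.48 CPM (10 UMIs) in fibroblast-like cells (log2 ratio 2.00). Adam12, a metalloprotease of IGFBP3 and IGFBP5, was 94.5 against 32.8 CPM in fibroblast-like cells (1.5). Htra1, a secreted serine protease, was lower in Dll1+ fibroblast-like cells, 220.0 against 376 CPM (-0.77). Stc2, which inhibits PAPP-A, was 27.4 against 8.20 CPM in fibroblast-like cells (1.63). Pappa2 had at most 2 UMIs in any class and library.

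Further down the pathway, Foxo1, a transcription factor that AKT holds out of the nucleus, was 62.4 CPM in Dll1+ and 22.4 CPM in Dll1- epithelial-like cells (log2 ratio 1.44). In fibroblast-like cells H19 had a log2 ratio of 1.78.

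Genes whose levels over the same 10 class and library sums were most like each member's were drawn from 8587 genes, as Pearson correlations of log2 levels without a test. Igf1 was most like Ildr2 (0.978), Nsg1 (0.970) and Ctdsp2 (0.969), and Igfbp6 most like Mfap5 (0.991), Tmem100 (0.991) and Pi16 (0.987). Igfbp2 came nearest to Enpp1 (0.971), Igfbp3 to Mb21d2 (0.965), Igfbp4 to Plpp3 (0.979), Igfbp5 to Isoc1 (0.972), Igfbp7 to Pls3 (0.987) and Igf1r to Kdelr3 (0.979). Among the members themselves, Igf1 correlated with Igfbp6 at 0.918 and with Igfbp4 at 0.873.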

How the data were processed

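The deposited values are raw counts of UMIs per gene and barcode, which the authors, per the file headers, made in Cell Ranger 4.0.0. The submitters' processing notes name mm10. The sources used here do not give the annotation release, the settings or the use of strand. The Dll1+ matrix summed to 117230907 UMIs in 13819 barcodes and the Dll1- matrix to 135960457 UMIs in 13097.

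Barcodes with at least 1000 UMIs and 500 genes and at most 20% mitochondrial UMIs were kept (10581 and 11121). The automatic scrublet threshold marked 0 and 0 doublets, so the highest scores were removed at 0.8% per 1000 barcodes (896 and 989 barcodes). Clustering was joint, in scanpy 1.11.5 with leidenalg 0.10.2 (2000 variable genes without the 9 members, 30 principal components, 15 neighbours, resolution 0.6, and 0.4 for sub-states), with no integration. A second split at 0.5 was made in unnamed clusters of 100 cells or more. A class needed at least 3 markers and 50% of its list, each detected in 20% of cells, and this scoring was set after the data were seen. Names are rebuilt here and may differ from the study's own.

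Counts were summed per class and library and given as CPM. Each log2 ratio sets Dll1+ over Dll1- after adding 1 to the CPM. Folds are printed without the added 1, and so are interval bounds, which can lie beyond the printed ratio for low genes. Intervals are 95%: exact Poisson for CPM, exact conditional binomial for ratios. With 1 library per group nothing was tested. A member was measured at 30 UMIs over both libraries and counted at 1.5-fold. Shares of cells were taken after thinning each cell to 2000 UMIs, leaving out shallower cells (606 and 199 epithelial-like, 13 and 28 fibroblast-like). The summing and counting steps were tested on simulated data. TMM factors came from edgeR 4.0.16 in R 4.3.3, used for scaling only. Sums and plots used Python 3.11.15 (pandas 2.3.3, numpy 2.4.6, matplotlib 3.10.9, scipy 1.17.1). Gene positions come from GENCODE M21 on mm10 and promoter sequences from RefSeq on GRCm38.p6.

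The members, the pathway list and the alternatives were chosen with earlier results of these data known. Named are all members in every class, the pathway genes at least 1.5-fold apart in epithelial-like or fibroblast-like cells with at least 20 CPM in a library, the receptors and proteases, and the genes most correlated with each member. Among the pathway genes the rule names, 1 is not reported here. For the correlations, sex-linked transcripts (Xist, Tsix and the Y chromosome's), ribosomal protein and mitochondrial genes and unnamed gene models were left out.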

Additional observations from a re-analysis of the deposited data

Results flagged for a closer look

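Igf1 differed in opposite directions between classes. Its log2 ratio of Dll1+ over Dll1- was -1.20 in endothelial-like cells, from 17 and 38 UMIs, against 0.69 in fibroblast-like cells and 0.68 in epithelial-like cells, where 61 and 9 UMIs were not clearly told apart from background. Igfbp2 was likewise lower in Dll1+ mural-like cells (-1.64) and higher in epithelial-like (3.48) and Krt5-led cells (1.97). Its ratio of 0.77 in fibroblast-like cells had no settled direction. With 1 library per group the differences between these classes were not tested.

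Macrophage-like cells, which enter no comparison of the report because a sort for cells without CD45 had left 25 and 7 of them, also held Igf1. Its level was 180.1 CPM (128 to 246) in the Dll1+ library, from 39 UMIs in 13 of the 25 cells, and 352 CPM (234 to 509) in the Dll1- library, where all 28 UMIs came from 1 of the 7 cells.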

How the results depend on the processing

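With 1 library per group, leaving out a replicate was not possible and no spread between animals is known, and classes and sub-states were rebuilt from markers. Depth limits Igf2 in every class, Igf1 outside fibroblast-like cells and Igfbp6 in mural-like cells. No paired analysis was possible because each group is 1 library.

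Over 19 alternatives each, Igfbp5 and Igfbp7 in epithelial-like cells (0.68 to 1.92 and 0.70 to 1.77), Igfbp2 in Krt5-led cells (0.86 to 2.29), and Igfbp2 and Igfbp3 in mural-like cells (-3.17 to -1.05 and 0.80 to 2.54) kept their direction and stayed past 1.5-fold, as did Igfbp5 (1.25 to 2.32) and Igf1 (-1.41 to -0.82) in endothelial-like cells over 17 and 15. The epithelial-like Igfbp7 counts were not clearly told apart from background, which these alternatives do not settle. Igfbp3 in endothelial-like cells kept its direction (0.26 to 0.85) and was past 1.5-fold in 13 of 17. Igfbp3 in fibroblast-like cells kept its direction (0.30 to 2.93), and so did Igfbp6 there (-0.84 to -0.32). Of 650 recomputed log2 ratios, 435 stayed within their counting interval and 200 moved. The other 15 changed sign from a main ratio at least 1.5-fold apart. Sign changes of smaller main ratios were not counted separately and lie among the 435 and 200.

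Weighting shared epithelial-like sub-states alike, with at least 50 or 30 cells of each library, gave 0.44 for Igf1r, -0.43 for Igfbp2 and -0.46 for Igfbp4. In fibroblast-like cells the 50-cell setting left F2 alone and gave -0.0075 for Igf1 and -0.46 for Igfbp7, and the 30-cell setting gave -0.16 for Igfbp7 and -1.41 for Igfbp2. Fibroblast-like Igfbp2 was -1.52 in the cells holding the fewest UMIs of other classes' markers relative to their total. Mural-like Igfbp6 was 2.42 at 2000 or more UMIs per cell, 2.21 at 10% or less mitochondrial UMIs, 1.21 as a mean over cells and 0.29 in M1 alone.

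The number of members at least 1.5-fold apart fell in mural-like cells from 5 to 3 under TMM, under centring on the median gene and in the cells with fewest other markers. In epithelial-like cells it fell from 7 to 4 with a pseudocount of 10 CPM and to 3 under both sub-state settings. In fibroblast-like cells it fell from 5 to 3 (50 cells) and 2 (30 cells). In Krt5-led cells it went from 2 to 4 with no filter on low counts, to 1 in the cells with fewest other markers and to 4 with the 30-cell setting, and in endothelial-like cells from 3 to 5 with doublets left in. The causes were not tested. The 30-cell setting and the settings without named sub-states or without the top cell of each library were chosen after seeing the data.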

Other observations

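Some signalling genes of the pathway list, chosen here after their values were seen, differed between the tumors in epithelial-like cells without reaching 20 CPM. Igf2bp2, which encodes an RNA-binding protein named for binding Igf2 transcripts, was 1.01 CPM in Dll1+ and 11.6 CPM in Dll1- cells (83 and 1222 UMIs). Those cells held 0 UMIs of Igf2 in either library, which allows up to 0.0366 and 0.0285 CPM by the limit of 3 counts. Of the adaptor genes that dampen receptor signalling, Grb10 was 2.37 against 10.7 CPM and Grb14 19.6 against 2.88 CPM. Irs1, the adaptor that couples the receptor to PI3 kinase, was 11.3 against 5.38 CPM. The PAPP-A inhibitor gene Stc1 was 257 against 120 CPM in endothelial-like cells and 3.75 against 0.142 CPM in epithelial-like cells, where its relative Stc2 was 1.84 against 7.63 CPM.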
